A study of Mus musculus with 16 samples.

Results

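The unfolded protein response and the integrated stress response of the gastrocnemius were followed through 10 genes chosen by name, which were Hspa5, Hsp90b1, Pdia4, Dnajb9, Xbp1, Atf4, Ddit3, Trib3, Asns and Chac1. All 10 were found among the 21923 gene identifiers of the expression table, and all 10 passed the count filter in each of the 6 comparisons. RNA was sequenced from 16 mice, 1 library per mouse and 4 mice in each group. The mice were bought at 6 to 8 weeks of age, tumor cells were injected on day 0 after a period of acclimation, and the muscles were taken on day 30. NOR mice were normal controls that received PBS on day 0 and daily from day 9 and carried no tumor. CAC mice carried subcutaneous tumors and received PBS from day 9. AM mice carried the same tumors and received amiloride, a diuretic that was used here to reduce exosome release, at 2 mg/kg daily from day 9. KD mice carried tumors grown from cells in which Rab27a and Rab27b, small GTPases of exosome secretion, had been knocked down by shRNA. The level of these genes in muscle therefore does not check the label. KD mice also received PBS daily from day 9. Replicates 1 and 2 of a group were labelled C57BL/6, the hosts of LLC lung carcinoma cells, and replicates 3 and 4 BALB/c, the hosts of CT26 colon carcinoma cells, which means that strain and tumor line cannot be told apart.

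Proteins that are secreted or sit in membranes fold in the endoplasmic reticulum (ER). When unfolded proteins accumulate there, the sensors IRE1, ATF6 and PERK switch on the unfolded protein response (UPR), which raises chaperones, folding enzymes and the machinery that removes misfolded proteins. PERK and the other kinases of eIF2alpha, which sense amino acid shortage, heme shortage or viral RNA, slow general translation while the transcription factor ATF4 is translated more, and ATF4 then switches on genes of amino acid supply. This second arm is the integrated stress response (ISR). Much of both pathways is controlled by splicing, translation and phosphorylation. Gene-level counts do not show the spliced form of Xbp1, the ATF4 protein or phosphorylated eIF2alpha.

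Several libraries stood apart before any comparison of these genes. In NOR 1, CAC 1, CAC 4, KD 2 and KD 3 the 9 measured B and plasma cell markers summed to between 1.64 and 4.04 CPM (counts scaled to library size with TMM), against 37.5 to 427 CPM in the other libraries. CAC 4, AM 1, AM 3 and KD 1 held 0 to 0.765 CPM of Trim12a and 8.88 to 31.3 CPM of Rpl26, against 5.36 to 21.8 CPM and 245 to 417 CPM in the other 12 libraries. Over 13209 genes, 1 had ranges that did not overlap between the 8 libraries labelled C57BL/6 and the 8 labelled BALB/c. Between the 4 libraries low in Trim12a and the other 12 it was 374 genes, a count that is a description of a split chosen from the data and cannot be set against that of the labels. Of these 4 libraries, AM 1 and KD 1 are labelled C57BL/6 and CAC 4 and AM 3 BALB/c, so a strain difference in the results below is one between labels only. KD 3 had 0 counts of 4 Y-linked genes that the other 15 libraries expressed. The labels give both sexes for the BALB/c mice and males for the C57BL/6 mice, and no label gives the sex of a single mouse. The paper's methods give males for both strains, while a legend in its supplement gives both sexes for BALB/c. The part of sex in the values of KD 3 was not tested. The 8 skeletal muscle markers were abundant in every library, with sums from 74585 to 217532 CPM.

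The start regions of the genes were read first, because a few short sequence elements define how these responses reach their targets. The ER stress response element, bound by ATF6 and XBP1 with NF-Y, is CCAAT and CCACG separated by 9 bases. In the 300-base windows of RefSeq (GRCm38.p6, 250 bases before to 50 after the start) it was found in 39 of 32851 windows (0.119%), on either strand. Among the 10 members it was found in Hspa5 and Hsp90b1, the major chaperones of the ER, and the Hsp90b1 window held 2 copies on opposite strands. The stretch of Hsp90b1 before any annotated transcript start (chr10:86705510-86705694, minus strand) is shown with both copies in capitals, the second of them reading on the opposite strand.
Hsp90b1: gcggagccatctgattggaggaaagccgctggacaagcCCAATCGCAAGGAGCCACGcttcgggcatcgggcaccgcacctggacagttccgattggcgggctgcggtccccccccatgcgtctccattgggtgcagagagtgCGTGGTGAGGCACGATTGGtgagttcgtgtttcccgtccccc
In Hspa5 the element lies at chr2:34772025-34772043 (plus strand), and the window also holds TGACGTG, the core of the UPR element, at chr2:34771933-34771939. TGACGTG was found in 661 of all windows (2.01%). The element of Hspa5 is shown with 5 bases on each side, followed by the stretch that holds TGACGTG.
Hspa5: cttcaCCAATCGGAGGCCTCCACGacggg
Hspa5 upstream: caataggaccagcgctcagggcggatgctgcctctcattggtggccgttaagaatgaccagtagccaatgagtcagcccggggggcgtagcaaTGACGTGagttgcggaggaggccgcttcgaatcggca

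TGATGNAA, the composite site of ATF4 and C/EBP factors, was found in 1304 windows (3.97%) and in those of Chac1, Asns and Trib3 among the members. In Chac1 it lies 193 to 186 bases before the start and reads on the opposite strand (chr2:119351049-119351056). In Asns it lies at chr6:7693225-7693232 on the gene's own strand, and in Trib3 it lies 15 to 22 bases after the RefSeq start on the opposite strand (chr2:152344039-152344046). Distances are from the RefSeq start, which is not the GENCODE end of the gene given further on: by GENCODE the Trib3 site lies before the gene, and the ER stress response element of Hspa5 and the site of Asns lie inside the gene. These 3 are shown because the encoded genes are the textbook targets of ATF4, with the site in capitals.
Chac1: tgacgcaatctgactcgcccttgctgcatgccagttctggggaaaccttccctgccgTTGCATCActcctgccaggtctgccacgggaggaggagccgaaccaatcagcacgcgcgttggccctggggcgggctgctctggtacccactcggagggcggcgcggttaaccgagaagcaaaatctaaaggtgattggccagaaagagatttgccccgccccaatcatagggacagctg
Asns: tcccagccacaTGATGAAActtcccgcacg
Trib3: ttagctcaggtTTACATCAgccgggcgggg
The second form of the ER stress response element, ATTGG and CCACG separated by 1 base, was in 12 windows (0.0365%) and in none of the members. None of the 4 patterns was in the windows of Pdia4, Dnajb9, Xbp1, Atf4 or Ddit3, which says only that these letters are not in these windows. Of other genes of the pathways, in 9 lists described further on, the first form was in 6 of 16 ER chaperones and folding enzymes with a window (Calr, Canx, Creld2, Dnajc3, Ero1b and Pdia6), in 2 of 15 genes of ER-associated degradation and in 0 of the other 7 lists. TGATGNAA was in 5 of 8 aminoacyl-tRNA synthetases (Aars, Gars, Iars, Tars and Yars), 3 of 14 amino acid targets of ATF4, 3 of 11 of its partners, 2 of 15 genes of ER-associated degradation, 1 of 4 secreted products and 1 of 16 chaperones, and in 0 of the 6 sensors, the 8 genes around eIF2alpha and the 12 of the translocon.

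In the CAC gastrocnemius, Xbp1, Dnajb9 and Atf4 stood above NOR in every mouse, while the ER chaperones Hspa5, Hsp90b1 and Pdia4 and the ATF4 targets Ddit3, Trib3, Asns and Chac1 did not pass the test. Xbp1 rose 1.79-fold (FDR = 0.0119), Dnajb9 1.44-fold (FDR = 0.00736) and Atf4 1.38-fold (FDR = 0.0238). In the AM gastrocnemius, Atf4 fell by 0.57 on the log2 scale relative to CAC (FDR = 0.0202), and its 4 values overlapped those of NOR. A gene was called when its FDR did not exceed 0.05 and it changed 1.5-fold or more in either direction, and rose or fell is used where the FDR alone was within that limit. By this rule 1 of the 10 members was called in CAC vs. NOR, where 9.45% of all 14666 tested genes were. At any fold change 3 of 10 members were within the FDR limit, where 14% of all genes were, and the ranges of 3 of 10 did not overlap between the groups, where 22.8% of all genes did not. In AM vs. CAC edgeR called 0 of 10 members (3.66% of all genes), 1 was within the FDR limit (4.98%) and the ranges of 3 did not overlap (15.7%). DESeq2 called Xbp1 there (FDR = 0.0127), and some other fits called Atf4, as given further on. In KD vs. CAC 0 of 10 were called (0.00685%, which is 1 gene), 0 reached an unadjusted p of 0.05, where 1627 of 14593 genes did, and the ranges of 0 did not overlap (7%). Other fits of KD vs. CAC called 230 genes higher and 102 lower (DESeq2), 90 and 55 (edgeR with all 16 libraries in 1 fit) or 0 (limma-voom), with 0 members among them. In AM vs. CAC the 239 higher and 298 lower genes fell to between 61 and 125 higher and 151 and 221 lower when any mouse but CAC 4 was left out, and to 0 with either strain label alone, whereas DESeq2 called 641 higher and 479 lower. More genes were higher than lower in that fit, with upper-quartile scaling (279 and 232) and with all 16 libraries in 1 fit (131 and 100).

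**Figure D1:**
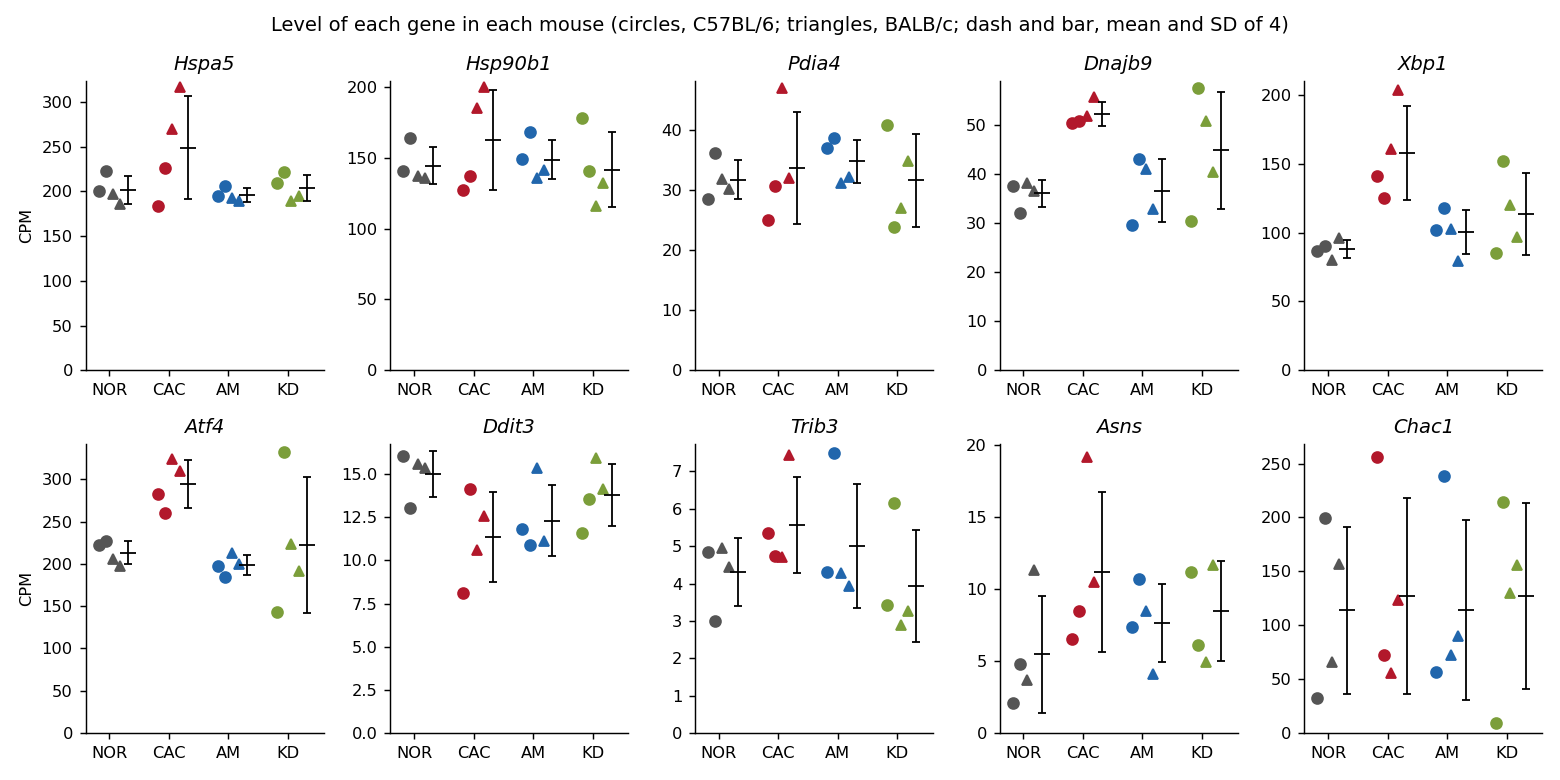
CPM (y axis, from 0) of the 10 genes in the 4 groups (x axis), with 1 symbol per mouse, circles for mice labelled C57BL/6 and triangles for BALB/c, and the mean and SD of each group as a dash with a bar. The 4 CAC mice lie above the 4 NOR mice for Dnajb9, Xbp1 and Atf4, the KD mice are spread widely for the same 3 genes, and Chac1 ranges from 9.41 to 256 CPM.

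Per length of gene, Atf4 was the most abundant member with a mean of 195 FPKM over the 16 mice, followed by Xbp1 (84.3 FPKM), Hsp90b1 (76.8 FPKM), Chac1 (72.5 FPKM) and Hspa5 (68.4 FPKM). Dnajb9 (29.8 FPKM), Ddit3 (17.6 FPKM), Pdia4 (14.0 FPKM), Asns (7.19 FPKM) and Trib3 (2.33 FPKM) were lower. The counts behind the values were 7403 to 20154 per library for Hspa5, 153 to 473 for Trib3 and 76 to 1009 for Asns, the member with the lowest count.

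Hspa5 encodes BiP, the HSP70 chaperone of the ER that also holds the stress sensors inactive. The gene lies at chr2:34771970-34777547 (GRCm38, plus strand). Its level was 201, 223, 198 and 186 CPM in NOR 1 to 4, and 184, 226, 270 and 317 CPM in CAC 1 to 4. CAC 3 and CAC 4 lay well above all NOR mice, CAC 2 barely so, and CAC 1 below all of them. The difference was 0.30 ± 0.17 on the log2 scale (± SE, FDR = 0.271) and was smaller than the spread within CAC. AM mice lay between 189 and 207 CPM and KD mice between 189 and 222 CPM. The CV (SD over mean) was 23.0% in CAC, 7.68% in NOR, 3.94% in AM and 7.28% in KD.

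Hsp90b1 encodes GRP94, the HSP90 of the ER (chr10:86690209-86705509, minus strand). It was at 141, 164, 137 and 136 CPM in the NOR mice and at 127, 137, 185 and 200 CPM in the CAC mice. The AM mice held 149, 168, 136 and 141 CPM, and the KD mice 178, 141, 116 and 132 CPM. The groups overlapped throughout (CAC vs. NOR 0.17 ± 0.16 on the log2 scale, FDR = 0.548), with the same CAC 3 and CAC 4 as the highest of all 16 libraries. Pdia4, a protein disulfide isomerase of the ER (chr6:47796141-47813430, minus strand), averaged 31.7 ± 3.27 CPM in NOR and 33.7 ± 9.35 CPM in CAC (SD, n = 4). The AM mean was 34.7 ± 3.64 CPM and the KD mean 31.6 ± 7.71 CPM. Its highest value was 46.9 CPM in CAC 3 and its lowest 23.8 CPM in KD 2. No order of the groups could be read from Pdia4.

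Dnajb9 encodes ERdj4, a co-chaperone of BiP, and is a target of spliced XBP1 (chr12:44205559-44210326, minus strand). It was at 37.5, 32.1, 38.2 and 36.4 CPM in NOR and at 50.3, 50.8, 51.9 and 55.6 CPM in CAC, the tightest group of any member apart from Hspa5 in AM, with a CV of 4.6%. The increase was 0.53 ± 0.08 on the log2 scale, with an exact permutation p of 0.0286, the smallest that 4 against 4 mice allow, and it stayed under the 1.5-fold limit. AM mice were at 29.5, 43.0, 41.0 and 32.9 CPM, all below the CAC mice (-0.51 ± 0.12, FDR = 0.053 in edgeR and 0.0102 in DESeq2, from 0.0102 to 0.311 over all alternatives). KD mice fell on both sides, with 57.5 and 50.8 CPM in KD 2 and KD 3 at the CAC level and 30.4 and 40.4 CPM in KD 1 and KD 4 below it.

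Xbp1 encodes the transcription factor whose mRNA is spliced by IRE1 (chr11:5520659-5525893, plus strand). It was at 86.8, 90.1, 79.9 and 96.0 CPM in NOR and at 141, 125, 161 and 204 CPM in CAC. The groups did not overlap, and Xbp1 was the only member past both limits in CAC vs. NOR (0.84 ± 0.15 on the log2 scale, exact permutation p = 0.0286). Without CAC 4, the one library low in Trim12a here, the increase was 0.69 (FDR = 0.0126). Without NOR 1, CAC 1 and CAC 4, the libraries low in B cell markers here, it was also 0.69 but with an FDR of 0.0729, and over all alternatives the FDR ran from 2.0e-05 to 0.144. AM mice were at 102, 118, 103 and 79.7 CPM, all below the lowest CAC mouse, with a log2 difference of -0.65 ± 0.17 that missed the FDR limit (FDR = 0.0687) in edgeR and passed it in DESeq2 (-0.63, FDR = 0.0127), with FDR values up to 0.341 over the alternatives. KD mice were at 85.3, 152, 120 and 96.6 CPM, and KD 2 lay inside the CAC range (-0.48 ± 0.22, FDR = 0.466).

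Atf4 (chr15:80255184-80257541, plus strand) was at 223, 227, 206 and 198 CPM in the NOR mice and at 283, 260, 325 and 310 CPM in the CAC mice. It was at 197, 184, 212 and 199 CPM in the AM mice and at 143, 333, 223 and 191 CPM in the KD mice. CAC overlapped with neither NOR nor AM, and NOR and AM overlapped with each other. The log2 difference was 0.46 ± 0.10 for CAC vs. NOR and -0.57 ± 0.10 for AM vs. CAC, the latter just under the 1.5-fold limit. Both comparisons use the same 4 CAC mice. The FDR for CAC vs. NOR was within the limit in 4 of 8 fits that each left out 1 mouse, and missed it without NOR 2, NOR 3, NOR 4 or CAC 1, at log2 values from 0.43 to 0.49. For AM vs. CAC it was within the limit without CAC 2 or CAC 4 and missed it in the other 6 fits, with FDR values up to 0.0643. KD 2 held the highest and KD 1 the lowest level of Atf4 of all 16 libraries.

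**Figure D2:**
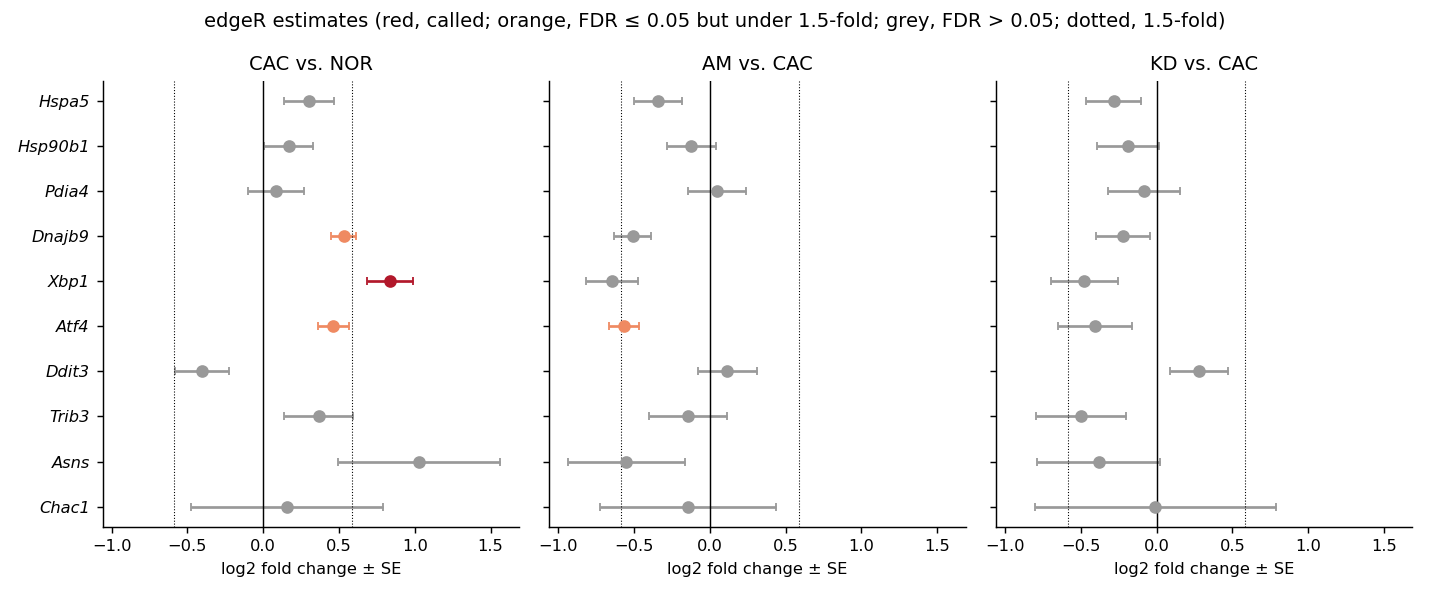
Log2 fold change (x axis, ± SE) of the 10 genes (y axis) for CAC against NOR and for AM and KD against CAC, with the 1.5-fold limits as dotted lines. Xbp1 and Asns in CAC vs. NOR and Xbp1 in AM vs. CAC lie past a dotted line, of which Xbp1 in CAC vs. NOR was also within the FDR limit of 0.05, and the bars of Asns and Chac1 are the longest.

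The 4 remaining genes lie downstream of ATF4. Ddit3 encodes CHOP, the transcription factor tied to cell death under lasting ER stress, and had the only estimate below 0 of the 10 in CAC vs. NOR (chr10:127290774-127296288, plus strand). It was at 16, 13.0, 15.6 and 15.4 CPM in NOR and at 8.11, 14.1, 10.6 and 12.6 CPM in CAC. CAC 2 lay above NOR 2, and the difference of -0.40 ± 0.18 on the log2 scale did not pass the test (FDR = 0.170). AM mice lay between 10.9 and 15.3 CPM and KD mice between 11.6 and 15.9 CPM. The table has a second identifier named Ddit3 inside the same locus (chr10:127290829-127293753, GRCm38) with exactly 1 count in every library. The 3' end of Ddit3 overlaps Mars on the other strand, and whether reads there were split or misassigned was not tested.

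Trib3, a pseudokinase that restrains ATF4 and CHOP (chr2:152337422-152344032, minus strand), was low, with a mean of 4.31 ± 0.909 CPM in NOR and 5.56 ± 1.29 CPM in CAC (SD, n = 4). The AM mean was 5.01 ± 1.66 CPM and the KD mean 3.93 ± 1.49 CPM. Its highest levels were 7.49 CPM in AM 2, 7.44 CPM in CAC 4 and 6.15 CPM in KD 2, each the highest of its group. No difference of Trib3 passed the test, with FDR = 0.329 for CAC against NOR, 0.801 for AM against CAC and 0.579 for KD against CAC.

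Asns, which makes asparagine and is a standard readout of amino acid shortage (chr6:7675169-7693254, minus strand), was at 1.03 ± 0.53 on the log2 scale in CAC vs. NOR and did not pass the test (FDR = 0.245). The estimate was 0.63 without CAC 3 and 1.67 without NOR 4, the lowest and the highest value when 1 mouse was left out. It was at 2.06, 4.81, 3.66 and 11.3 CPM in NOR and at 6.55, 8.47, 19.2 and 10.5 CPM in CAC. NOR 4 lay above 3 of the CAC mice. NOR 4 and CAC 3 also held the highest adipocyte marker sums of their groups, 3677 and 5145 CPM, and the mice with the lowest sums, NOR 1 (732 CPM) and CAC 1 (764 CPM), the lowest Asns of theirs. The adipocyte list was singled out after its values were seen, as the closest of 10 marker lists to Asns (r = 0.84 over 16 libraries that share groups). Asns had r = -0.79 with the skeletal muscle list, 0.77 with the neutrophil list, 0.69 with the liver list and 0.67 with the macrophage list. The part of any of these tissues in the Asns level was not tested. In AM, Asns was at 7.34, 10.7, 8.44 and 4.09 CPM, with adipocyte sums of 1644, 4586, 1335 and 1563 CPM, so that the highest values fell in the same mouse and the lowest in different mice. KD 1 and KD 4, at 11.2 and 11.7 CPM of Asns, had adipocyte sums of 3849.7 and 3351 CPM, against 953 and 896 CPM in KD 2 and KD 3, at 6.10 and 4.93 CPM of Asns.

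Chac1, a glutathione-degrading enzyme and ATF4 target (chr2:119351229-119354381, plus strand), varied most of the members over the 16 mice, with a CV of 63.1%, followed by Asns with 51.7%. It was at 32.7, 199, 65.8 and 157 CPM in the NOR mice and at 256, 71.9, 56.0 and 123 CPM in the CAC mice. The AM mice held 56.9, 238, 72.1 and 89.6 CPM and the KD mice 9.41, 214, 130 and 156 CPM. Each group had a CV of 67.6% to 73.3% (74.3% for Asns in NOR), and the group means lay between 114 and 127 CPM. The log2 difference in CAC vs. NOR was 0.16 ± 0.63 (FDR = 0.908), so that at this spread neither a rise nor a fall could be told.

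**Figure D3:**
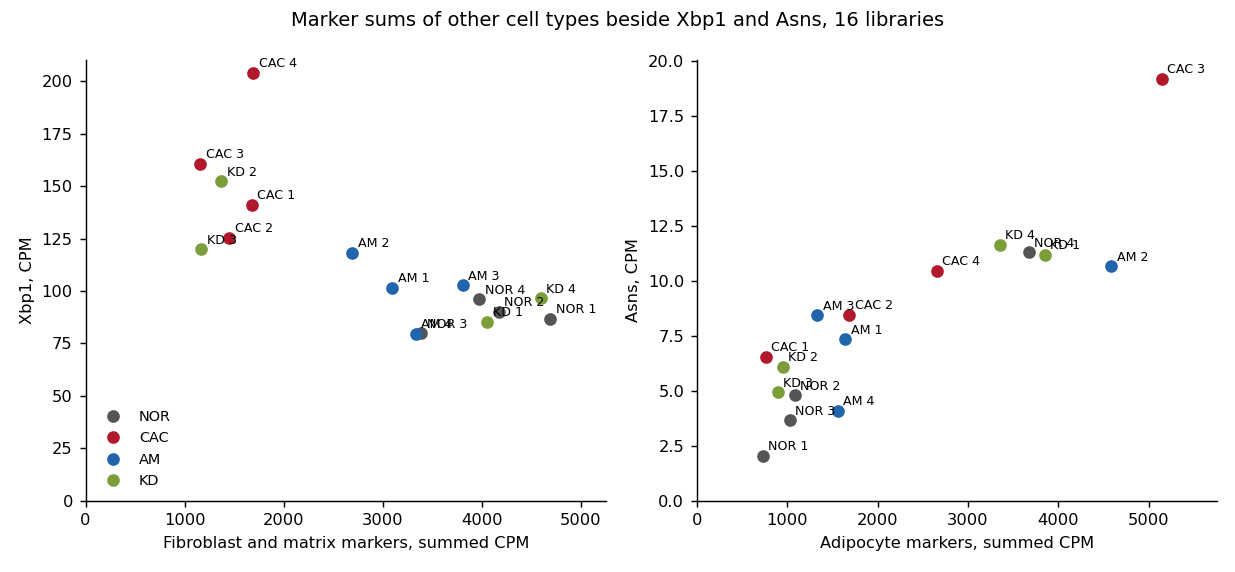
Xbp1 against the summed CPM of fibroblast and matrix markers (left) and Asns against that of adipocyte markers (right), with 1 point per library, CPM on both axes and the groups in color. CAC mice, KD 2 and KD 3 lie at low matrix sums with Xbp1 between 119.9 and 204 CPM, and CAC 3 lies highest for both Asns and adipocyte markers.

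Markers of other cells moved with the groups. The 10 fibroblast and matrix markers summed to between 3391 and 4694 CPM in the NOR mice, 1158 and 1695 CPM in the CAC mice, 2696 and 3808 CPM in the AM mice, and 1169.9 and 4597 CPM in the KD mice, and none was at 0 counts in any library. The 6 neutrophil markers summed to 8.26 to 25.1 CPM in NOR and 92.1 to 212 CPM in CAC, and spread over both ranges in AM (13.9 to 125 CPM) and KD (14.6 to 220 CPM). The 6 erythroid markers summed to 1049.9 to 1359.7 CPM in NOR, 3629.6 to 8621 CPM in CAC, 961 to 15886 CPM in AM and 2196 to 21357.5 CPM in KD. Of the KD mice, KD 2 and KD 3, with the higher Xbp1 and Dnajb9, had matrix sums of 1372 and 1169.9 CPM, against 4059 and 4597 CPM in KD 1 and KD 4. The matrix list was not alone in this split. B and plasma cell sums were 2.10 and 1.64 against 271 and 95.5 CPM, and macrophage sums 236 and 107 against 889 and 745 CPM. T cell, neutrophil, adipocyte and liver sums were also lower in KD 2 and KD 3, while skeletal muscle and endothelial sums were higher. In bulk muscle, fewer cells of a type and less RNA per cell cannot be told apart, and the part of these cells in the levels of Xbp1, Dnajb9 and Atf4 was not tested. Macrophage sums were 223 to 596 CPM in NOR and 506 to 787 CPM in CAC, endothelial sums 977 to 1544 CPM and 1318 to 1729 CPM, and T cell and liver sums overlapped between all groups.

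Around the members, 118 other genes of the UPR and ISR were followed in 9 lists, of which 116 were tested in CAC vs. NOR. There 8 were called higher and 2 lower, 8.62% of those tested, beside the 9.45% of all genes. At any fold change 19 rose and 3 fell (19% beside 14% of all genes), and 84 of 116 estimates were above 0, with a median of 0.18 on the log2 scale beside 0.01 over all genes. These lists, like the members, were chosen with earlier results of these data known, so a share beside that of all genes is a description. In AM vs. CAC 1 was called higher and 3 lower (3.45% beside 3.66%), 2 rose and 9 fell at any fold change (9.48% beside 4.98%), and 77 of 116 estimates were below 0 (median -0.11 beside 0.01). This comparison shares the CAC mice with CAC vs. NOR, so opposite signs in the 2 comparisons are not independent. In KD vs. CAC 0 of 115 passed in the main edgeR fit, with a median of -0.11 beside 0.00018 over all genes. DESeq2 called 1 of them, beside 230 higher and 102 lower over all genes. With all 16 libraries in 1 fit it was also 1, beside 90 higher and 55 lower. Leaving out 1 mouse, the FDR in CAC vs. NOR was within the limit in 8 of 8 fits for Nploc4, Slc3a2, Nupr1, Creb3l1, Cebpg, Sec62 and Sec63, in 6 of 8 for Nfe2l2, Lars, Gars, Sec24d and Eif2b5, in 4 for P4hb, in 3 for Ube2j1, in 2 for Cbs, Impact, Canx and Tars, and in 1 for Cth and Eif2ak4. For the other 2, Ddit4 and Spcs3, it was not computed. In AM vs. CAC it was within the limit in 4 of 8 for Spcs3, Sec62 and Eif2b5, in 2 for Vldlr, in 1 for Cebpg, Gars, Sec24d and Creb3l1, and in 0 for Slc3a2, Mars and Cars.

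Of the 8 sensors of the UPR, 1 was called. Creb3l1 encodes OASIS, an ATF6-like factor of collagen-secreting cells, and fell from 20.4, 18.8, 11.1 and 8.1 CPM in NOR to 4.5, 4.4, 4.4 and 4.2 CPM in CAC (-1.73 ± 0.29, FDR = 0.00861), in the same mice in which the matrix markers were low. It was at 7.9, 6.1, 9.2 and 15.1 CPM in AM (1.13 ± 0.27 against CAC, FDR = 0.0495). Ern1, the gene of IRE1, and Atf6 were higher in every CAC mouse than in any NOR mouse without passing the test, with log2 values of 0.38 ± 0.12 (FDR = 0.0685) and 0.26 ± 0.09 (FDR = 0.0846).

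Of the 10 genes around eIF2alpha, 3 rose in CAC vs. NOR at any fold change and 1 of them was called. Impact, which holds the kinase GCN2 in check, rose 1.63-fold (FDR = 0.0281). Eif2b5, a subunit of the exchange factor that phosphorylated eIF2alpha blocks, rose 1.36-fold (FDR = 0.0153), and Eif2ak4, which encodes GCN2 itself, 1.29-fold (FDR = 0.0382). In AM vs. CAC, Eif2b5 fell by 0.42 on the log2 scale (FDR = 0.016), from 92.4, 90.3, 86.5 and 94.2 CPM to 65.7, 69.1, 70.1 and 66.9 CPM. Ppp1r15a, the phosphatase subunit GADD34 that reverses the ISR, differed by -0.90 ± 0.28 in AM vs. CAC without passing the test (FDR = 0.104).

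Of the 20 other ER chaperones and folding enzymes, 0 were called in CAC vs. NOR and 2 rose at any fold change, with 17 of 20 estimates above 0 and a median of 0.14. They were Canx, the lectin chaperone calnexin (1.40-fold, FDR = 0.0338), and P4hb, the protein disulfide isomerase that is also a subunit of collagen prolyl hydroxylase (1.39-fold, FDR = 0.0285). Both were above NOR in every CAC mouse, and in AM vs. CAC neither passed the test (-0.44 ± 0.12, FDR = 0.0742, and -0.32 ± 0.11, FDR = 0.145). Pdia5 was at 0.61 ± 0.18 in CAC vs. NOR (FDR = 0.0528).

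Of the 18 genes of ER-associated degradation, which pulls misfolded proteins out of the ER for the proteasome, 2 were called in CAC vs. NOR. Nploc4, a cofactor of the extracting ATPase p97, rose 2.10-fold from 77.1, 61.1, 63.6 and 64.1 CPM to 134, 129, 168 and 128 CPM (FDR = 0.00272). Ube2j1, a ubiquitin-conjugating enzyme of the ER membrane, rose 1.54-fold (FDR = 0.0324). In KD vs. CAC, Nploc4 was below CAC in every mouse, with 91.9, 67.4, 86.4 and 75.9 CPM, at an FDR of 0.231. Herpud1, a scaffold of this machinery and a common marker of the UPR, was at 309 and 344 CPM in KD 2 and KD 3 and at 116 and 230 CPM in KD 1 and KD 4. It did not separate CAC from NOR, with 240, 233, 204 and 206 CPM against 209, 175, 220 and 224 CPM (0.09 ± 0.11 on the log2 scale, FDR = 0.656).

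Of 15 genes of the translocon and of vesicle transport out of the ER, 3 rose and 1 fell in CAC vs. NOR. Sec62 and Sec63, which help proteins enter the ER, both rose 1.44-fold (FDR = 0.00709 and 0.0103), and Spcs3, a subunit of the signal peptidase, was the one called among the 15, at 0.64 on the log2 scale (FDR = 0.0162). Sec24d, a coat protein of the vesicles that carry collagen, fell by 0.56 (FDR = 0.0152). In AM vs. CAC the differences went the other way, with Sec62 at -0.51 ± 0.09 (FDR = 0.019), Spcs3 at -0.68 ± 0.12 (FDR = 0.0187) and Sec24d at 0.54 ± 0.12 (FDR = 0.0425), and both comparisons share the CAC mice.

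**Figure D4:**
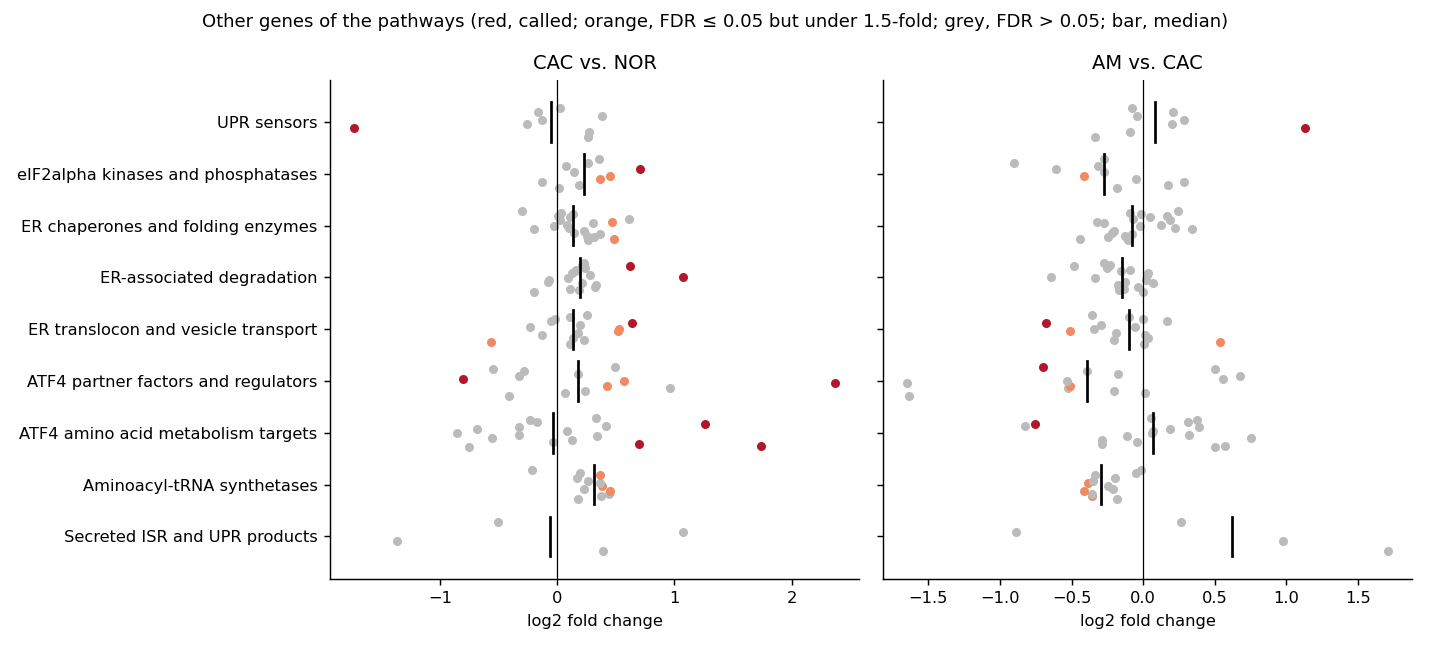
Log2 fold change (x axis) of each tested gene of the 9 lists (y axis) in CAC vs. NOR and AM vs. CAC, with 1 point per gene and the median of each list as a bar. In CAC vs. NOR the median of the aminoacyl-tRNA synthetases is the highest of the 9 lists at 0.31, and single genes of several lists lie far from the rest of their list.

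Of the 13 partners and regulators of ATF4, 3 rose and 1 fell in CAC vs. NOR. Nupr1, a stress-induced chromatin protein, fell in every mouse, from 19.1, 20.9, 19.5 and 19.4 CPM to 11.4, 9.6, 11.7 and 12.4 CPM (-0.81 ± 0.11, FDR = 0.00416). Cebpg, the dimer partner of ATF4, rose 1.35-fold (FDR = 0.00835), and Nfe2l2, which encodes the oxidative stress factor NRF2, 1.48-fold (FDR = 0.0183). Ddit4, the mTORC1 inhibitor REDD1, was the other gene called, at 2.37 on the log2 scale (FDR = 0.0226). Cebpg fell in AM vs. CAC (-0.51 ± 0.10, FDR = 0.0234), as did Vldlr, a lipoprotein receptor induced by ATF4 (-0.70 ± 0.13, FDR = 0.0224). In KD vs. CAC, Ddit4 was at 23.7, 258, 108 and 49.8 CPM, against 402, 289, 258 and 329 CPM in CAC (FDR = 0.418).

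Of the 18 ATF4 targets of amino acid metabolism, 17 were tested and 3 rose in CAC vs. NOR, while 9 of the 17 estimates were below 0. Slc3a2, the heavy chain shared by the CD98 amino acid transporters, rose 2.40-fold, from 48.6, 54.8, 58.7 and 66.5 CPM to 120, 118, 132 and 178 CPM (FDR = 0.00377), and fell in AM vs. CAC to 86.5, 92.5, 85.1 and 60.7 CPM (-0.75 ± 0.17, FDR = 0.0445). Cbs and Cth, the enzymes that turn homocysteine into cysteine, rose 3.34-fold (FDR = 0.0432) and 1.62-fold (FDR = 0.0484) from low levels of 0.498 ± 0.118 and 3.39 ± 0.564 CPM in NOR. Cbs was at 0.884, 0.845, 3.04 and 1.90 CPM in the CAC mice. The highest Cbs and Cth of all libraries were in AM 1, at 6.63 and 8.62 CPM. Slc38a2, the glutamine carrier SNAT2, was below CAC in every AM mouse (-0.83 ± 0.23) without passing the test (FDR = 0.078).

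Of the 12 aminoacyl-tRNA synthetases, which load tRNAs with amino acids, 0 were called, 3 rose in CAC vs. NOR and 3 fell in AM vs. CAC. Gars rose 1.37-fold (FDR = 0.0184), Lars 1.3-fold (FDR = 0.0172) and Tars 1.29-fold (FDR = 0.0369), and 11 of the 12 estimates were above 0, with a median of 0.31. Against CAC, all 12 estimates in AM were below 0, with Gars at -0.41 ± 0.08 (FDR = 0.0312), Mars at -0.38 ± 0.08 (FDR = 0.0352) and Cars at -0.36 ± 0.08 (FDR = 0.049). The CAC mice are the same in both comparisons. Of 5 secreted products, 4 were tested in CAC vs. NOR and 0 passed, with Stc2 at 1.07 ± 0.39 (FDR = 0.107) and Vegfa at -0.51 ± 0.16 (FDR = 0.0744).

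The groups CAC and NOR did not overlap for Xbp1, Dnajb9 and Atf4, which fixes the direction within each strain label. The mean log2 difference was 0.54 for the mice labelled C57BL/6 and 0.52 for those labelled BALB/c for Dnajb9, 0.59 and 1.05 for Xbp1, and 0.27 and 0.65 for Atf4. The sign differed between the labels for Hsp90b1 (-0.20 and 0.49), Hspa5 (-0.05 and 0.61), Pdia4 (-0.21 and 0.32) and Chac1 (0.75 and -0.29), and of these 4 Hsp90b1 alone moved in opposite directions in every mouse. The interaction of label and condition was 0.70 ± 0.18 for Hsp90b1 (unadjusted p = 0.00639 in edgeR, FDR = 0.731) and 0.66 ± 0.22 for Hspa5 (unadjusted p = 0.0235, FDR = 0.953), and 0 of 14666 genes passed an FDR of 0.05, while 717 genes (4.89%) and 2 members had an unadjusted p below 0.05. For AM against CAC 5 members and 12.4% of all genes had one, and for KD against CAC 2 members and 5.65%, with 0 genes within the FDR limit in either by edgeR. DESeq2 gave the interaction of Hsp90b1 an FDR of 0.00767 in AM vs. CAC. Each label rests on 2 mice against 2, and 4 libraries stood apart across both labels.

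**Figure D5:**
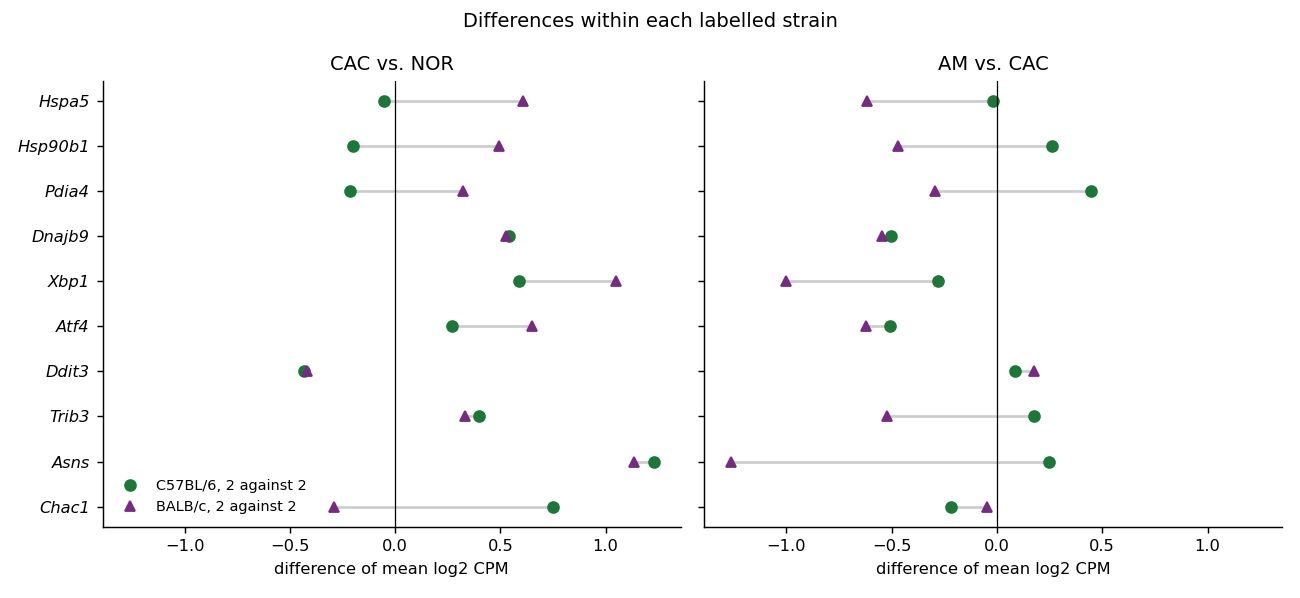
Difference of mean log2 CPM (x axis) for the 10 genes (y axis) within the mice labelled C57BL/6 (circles) and BALB/c (triangles), each 2 mice against 2, in CAC vs. NOR and AM vs. CAC. Circle and triangle lie on opposite sides of 0 for Hsp90b1 and Pdia4 in both comparisons.

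Against NOR, neither AM nor KD differed in any member by the test, and 0 of all genes were called in AM vs. NOR, KD vs. NOR or AM vs. KD by edgeR. DESeq2 called 50 genes higher and 20 lower in AM vs. NOR, 27 and 4 in KD vs. NOR and 0 and 1 in AM vs. KD, and edgeR called 13 and 1 in AM vs. NOR without AM 4, 0 and 3 there with the BALB/c label alone, and 1 and 0 in KD vs. NOR without KD 1, with 0 members called in any of them. At an unadjusted p of 0.05 there were 1354, 522 and 163 genes, and 0 members, in these 3 comparisons. The highest mean was in CAC for Hspa5, Hsp90b1, Dnajb9, Xbp1, Atf4, Trib3 and Asns, in AM for Pdia4, in NOR for Ddit3 and in KD for Chac1. In the order of the 4 group means, the ranges of every pair of neighbors overlapped for each of the 10 genes. For Dnajb9 and Xbp1 the mean of KD lay between CAC and the lower groups while its mice were split, KD 2 and KD 3 above KD 1 and KD 4.

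Across the 16 libraries, the levels of Dnajb9, Xbp1 and Atf4 moved together, with a Pearson correlation of log2 CPM of 0.85 for Dnajb9 and Xbp1, 0.80 for Xbp1 and Atf4, and 0.80 for Dnajb9 and Atf4 (0.70 to 0.71 for the 3 pairs after the group means were removed). Hspa5 and Hsp90b1 had 0.79, and Hsp90b1 and Dnajb9 -0.04. These values describe n = 16 libraries that share groups and the libraries that stood apart. Among 13208 other genes with a mean of at least 1 CPM, the closest to Xbp1 were Gabarap (r = 0.95) and Slc3a2 (r = 0.95), to Atf4 Phospho1 (0.96) and Mphosph10 (0.95), and to Dnajb9 Zscan12 (0.94) and Lmod2 (0.94). The closest to Hsp90b1 were Manf (0.87) and Calr (0.87), the latter the ER chaperone calreticulin, and to Hspa5 1810009A15Rik (0.88) and Manf (0.88), an ER protein of the UPR. Pdia4 was closest to Pdk3 (0.93) and Ptges (0.91), Ddit3 to Cbfa2t2 (0.79) and Mrps6 (0.78), Trib3 to Rgs3 (0.80) and Clec1a (0.79), Asns to Rragc (0.92) and Hk3 (0.88), and Chac1 to Fzd4 (0.89) and Ctgf (0.80).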

How the data were processed

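Gastrocnemius mRNA of 16 mice, enriched with Oligo(dT), was sequenced for the authors by a service company. The authors deposited 2 values per gene and mouse, raw read counts as whole numbers and FPKM, with no pooling of replicates. The submitters' processing notes name fastp, Bowtie2, HISAT2 and StringTie 1.3.1 and the builds mm9 and GRCm38, and the strand setting is not given in the sources used here. Libraries held 35913190 to 61032708 counts, and 0 columns of other samples were present.

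Counts were analysed with edgeR 4.0.16 in R 4.3.3 (TMM, filterByExpr with a minimum count of 10 and total of 15, quasi-likelihood F test, Benjamini-Hochberg FDR over all tested genes) on the 8 libraries of the compared groups, because NOISeq, the tool of the study, was not installed. Calls needed an FDR within 0.05 and a fold change past 1.5 (0.667 for a fall). The interaction of the labelled strain was tested without a fold limit, and the CPM of single genes were compared by exact permutation (two-sided). CPM used TMM factors over 16 libraries, and log2 CPM a prior count of 2. FPKM served for levels between genes. The SE of a log2 difference was its absolute value divided by the square root of the F statistic. Lists were described by counts and medians. The members and lists were chosen with earlier results of these data known. Genes named from a list are the 3 with the lowest unadjusted p in a comparison at a mean of at least 1 CPM, plus 2 further called genes (Ddit4 and Spcs3) and Herpud1 in KD, which were named after their values were seen. Trim12a and Rpl26 were also chosen after the data were seen. Symbols on more than 1 line were taken at the identifier with most counts. Positions are from GENCODE M21 (GRCm38), which held 21905 identifiers, and promoter windows from RefSeq (GRCm38.p6), which held all 10 members. The tests were tried on simulated data. Alternatives used DESeq2 1.42.0 and limma 3.58.1. P-values set the difference between groups against the spread between the mice of a group. In the main fits that spread pools both strain labels.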

Additional observations from a re-analysis of the deposited data

Results flagged for a closer look

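Hsp90b1 moved in opposite directions in the mice of the 2 strain labels, in every mouse, in all 3 comparisons with CAC, which share the 4 CAC mice. The interaction (BALB/c minus C57BL/6, log2 scale) was 0.70 in CAC vs. NOR (unadjusted p = 0.00639, FDR = 0.731 by edgeR), -0.74 in AM vs. CAC (unadjusted p = 0.00425, FDR = 0.293) and -0.92 in KD vs. CAC (unadjusted p = 0.0188, FDR = 0.854). DESeq2 gave an FDR of 0.00767 for AM vs. CAC, 0.0797 for CAC vs. NOR and 0.164 for KD vs. CAC. In all, 30 interactions were looked at, 10 genes in 3 comparisons. CAC 3 and CAC 4, at 185 and 200 CPM, were the highest of all libraries, and CAC 4 is one of the 4 libraries low in Trim12a.

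Trib3 was far from the other mice of its group in AM 2, at 7.49 CPM with 4.32 CPM as the next value, and in KD 2, at 6.15 CPM with 3.43 CPM as the next value. Over 40 groups of 4 values tested, chance marks about 1 in 20.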

How the results depend on the processing

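The call of Xbp1 in CAC vs. NOR was kept in all 8 fits without 1 mouse and in 24 of 27 tested alternatives its FDR was within the limit, with log2 values from 0.63 to 1.04. The FDR of Dnajb9 in CAC vs. NOR was within the limit in 23 of 27 and missed it with all 16 libraries in 1 fit, with either label alone and without the libraries low in B cell markers (0.0572 to 0.177). That of Atf4 was within it in 18 of 27 in CAC vs. NOR and 15 of 27 in AM vs. CAC. Of the 261 alternative counts, 216 stayed within 1.5 times the main count, and of 3108 alternative gene values 2836 kept direction and side of the threshold. The cause of each change was not tested. Alternatives on B cell markers and Trim12a were added after seeing the data.

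Member calls in CAC vs. NOR (1 here) were 3 with total counts only or no fold change limit and 0 with either label alone, without the libraries low in B cell markers or with a fold limit of 2. Total counts moved the median of all genes from 0.01 to 0.14 and the split of calls from 633 higher and 753 lower to 959 and 619. For AM against CAC (0 here) they were 1 with total counts (Atf4), DESeq2 (Xbp1), no fold limit or Trim12a as covariate (Atf4), and 0 to 1 without 1 mouse, with 1 when CAC 2 was left out (Atf4). Other pathway calls in CAC vs. NOR (10) were 17 with total counts, 6 with the replicate block, 2 and 0 with the C57BL/6 and BALB/c labels alone, 3 without the libraries low in B cell markers, 22 with no fold limit, 5 with a limit of 2, and 5 to 11 without 1 mouse, with 5 or 6 when NOR 1, NOR 2, NOR 3 or CAC 1 was left out. For AM against CAC (4) they were 2 with total counts, no count filter, strain as covariate or all 16 libraries in 1 fit, 12 with DESeq2 (which called 641 higher and 479 lower over all genes, against 239 and 298 here), 0 with the block, either label alone, the libraries low in B cell markers or in Trim12a left out or the B cell level as covariate, 11 and 1 with no fold limit and a limit of 2, and 0 to 3 without 1 mouse, with 0 to 2 when any mouse but AM 4 was left out. In KD vs. CAC (0) they were 1 with DESeq2 or all 16 libraries. The strain interaction of members in AM vs. CAC (0) was 1 with DESeq2.

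Signs changed as follows (log2 scale). With the C57BL/6 label alone, CAC vs. NOR gave -0.010 for Hspa5, -0.17 for Hsp90b1, -0.18 for Pdia4 and -0.32 for Angptl4, AM vs. CAC gave 0.27 for Hsp90b1, 0.23 for Trib3 and 0.26 for Asns, and KD vs. CAC gave 0.097 for Hspa5, 0.29 for Hsp90b1, 0.24 for Pdia4, 0.23 for Asns and 0.31 for Cbs. With the BALB/c label alone, Chac1 was -0.32 in CAC vs. NOR and 0.66 in KD vs. CAC, Pdia4 -0.33 in AM vs. CAC, and Angptl4 -0.78 and Stc2 0.37 in KD vs. CAC. Without the libraries low in B cell markers, Chac1 was -1.14, 0.84 and 0.36 for CAC against NOR and for AM and KD against CAC, and Pdia4 -0.16, Ddit3 -0.00635 and Trib3 0.083 in AM vs. CAC. With that level as covariate, Chac1 was -0.19, 0.72 and 0.000844, Pdia4 -0.15 and Trib3 0.027 in AM vs. CAC, and Angptl4 -0.031 in KD vs. CAC. Without the libraries low in Trim12a, AM vs. CAC gave 0.047 for Hsp90b1, 0.21 for Trib3 and 0.36 for Chac1, and KD vs. CAC 0.38 for Chac1, -0.53 for Angptl4 and 0.26 for Stc2. Pdia4 in AM vs. CAC was -0.038 with total counts and -0.038 by the FPKM ratio. Chac1 in KD vs. CAC was 0.0079 with RLE, 0.026 with upper quartile, 0.0079 with DESeq2, 0.0067 at a mean of 1 CPM, 0.047 with strain as covariate, 0.079 with the replicate block and 0.0040 in 1 fit. Angptl4 there was -0.19 with the block and -0.073 with limma-voom. Leaving out 1 mouse gave -0.10 to 0.21 for Pdia4 and -0.44 to 0.57 for Chac1 in CAC vs. NOR, -0.073 to 0.25 for Pdia4, -0.018 to 0.24 for Ddit3, -0.41 to 0.023 for Trib3 and -0.79 to 0.45 for Chac1 in AM vs. CAC, and -0.25 to 0.13 for Pdia4, -0.59 to 0.015 for Asns, -0.39 to 0.60 for Chac1, -0.76 to 1.65 for Angptl4 and -1.07 to 0.12 for Stc2 in KD vs. CAC. Between AM, KD and NOR, 81 of 840 alternative values changed sign and 0 passed the threshold.

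Same-numbered mice share the strain label and tumor line, and nothing in the labels ties them as litter, batch or day. Their deviations correlated at -0.24 to 0.68 in CAC vs. NOR, -0.56 to 0.07 in AM vs. CAC and -0.70 to -0.30 in KD vs. CAC. With the block, Xbp1 in CAC vs. NOR was still called (FDR = 0.0262). Over all genes the block gave 533 higher and 607 lower calls in CAC vs. NOR, against 633 and 753 without it, and 0 in AM vs. CAC, against 239 and 298. Over all genes, calls in CAC vs. NOR fell to 379 and 429 without NOR 2, 343 and 385 without NOR 3, 438 and 484 without CAC 1, 125 and 122 with the C57BL/6 label alone, 0 with the BALB/c label alone, and 225 and 173 without the libraries low in B cell markers. For AM against CAC they fell to 7 and 11 without the libraries low in B cell markers and to 0 without those low in Trim12a.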
